A study of Arabidopsis thaliana with 5 samples.

Results

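R-loops were mapped in wild-type Arabidopsis thaliana seedlings of the Columbia ecotype, 12 days old, and the peak lists called on each DNA strand are compared here with the lists called without regard to strand. The strand-specific side is the union of the w list and the c list, whose names stand for opposite strands, and the unstranded side is the union of the peaks of DRIP replicates 1 and 2. Every peak of the 4 lists was used. The w list held 34493 peaks and the c list 34069, which makes 68562 strand-specific peaks of 155741 in all, against 87179 unstranded peaks (47291 in replicate 1 and 39888 in replicate 2). All groups share genotype, ecotype, age and tissue, and no treatment separates the sides: both were called from DRIP, in which the S9.6 antibody precipitates restriction-digested nuclear DNA that carries DNA:RNA hybrids. The series has 5 samples. RNase H-treated DRIP (2 samples) and input (1 sample) are not analysed here, and peaks were thus not checked for sensitivity to RNase H. Replicates are known as such only by their labels and may be technical, and whole seedlings mix all their cell types.

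An R-loop is a structure in which an RNA pairs with one strand of the DNA and leaves the other strand unpaired. It commonly forms behind a transcribing RNA polymerase, and proteins such as RNase H and topoisomerase I keep its level low. Because the hybrid involves a given DNA strand, a library that keeps the strand of each read can separate hybrids on opposite strands that a map without strand puts together. Which of w and c corresponds to the RNA was not settled here, and the gene table used carries no transcribed strand, so w and c serve only as names.

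The sides are not independent, which bears on every comparison below. Both strand lists are recorded under DRIP replicate 1, and the sources used here state neither their control library nor any pooling. A peak's summit, its highest point, lay on exactly the same base as a replicate 1 summit for 12923 w peaks (37.5%) and 12639 c peaks (37.1%). The same held against replicate 2 for 2.79% of w peaks and 2.87% of c peaks, close to the 4.06% of replicate 1 summits that matched a replicate 2 summit. In the other direction, 54.0% of replicate 1 summits and 4.86% of replicate 2 summits were also a w or c summit. By this measure the strand lists lay closer to replicate 1 than the replicates lay to each other, and a match with replicate 1 is no independent support for a strand-specific peak. Fold values are the authors' ratio of summit pileup to local background. It is unknown whether they share a scale across lists, so they are used to rank peaks within a list, and any fold set beside another list's is a description.

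Strand-specific calling reached more DNA. The w and c lists covered 11.5 Mb each and merged into 64505 regions over 22.4 Mb, whereas the replicates covered 15.4 Mb and 13.8 Mb and merged into 48256 regions over 17.2 Mb. The sides shared 16.1 Mb, which was 68.5% of the bases in either. Bases under w or c peaks alone, called gained here, came to 6.30 Mb or 28.1% of the strand-specific bases. Bases under unstranded peaks alone, called lost, came to 1.11 Mb or 6.43% of the unstranded bases. Gained and lost describe the lists only, and the sources give no read totals, so the depth behind each list is unknown.

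The size of the gain depended on the replicate. Against replicate 1 alone 32.9% of the strand-specific bases were gained and 2.54% of the unstranded bases were lost, and against replicate 2 alone 42.2% were gained and 6.39% lost (mean gain 37.6% ± 6.51, mean loss 4.46% ± 2.72, SD, n = 2). Against the bases found in both replicates the gain was 47.0% and the loss 1.41%. The gain exceeded the loss in each of these 4 settings. Over the 5 chromosomes the gain against either replicate varied little, between 27.4% and 28.7%, and the loss lay between 6.10% and 6.67%. The excess of gain over loss follows the unequal extent of the sides. When peaks were taken from each side in order of fold until each covered 10 Mb, the gain was 27.6% and so, by construction, was the loss.

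**Figure D1:**
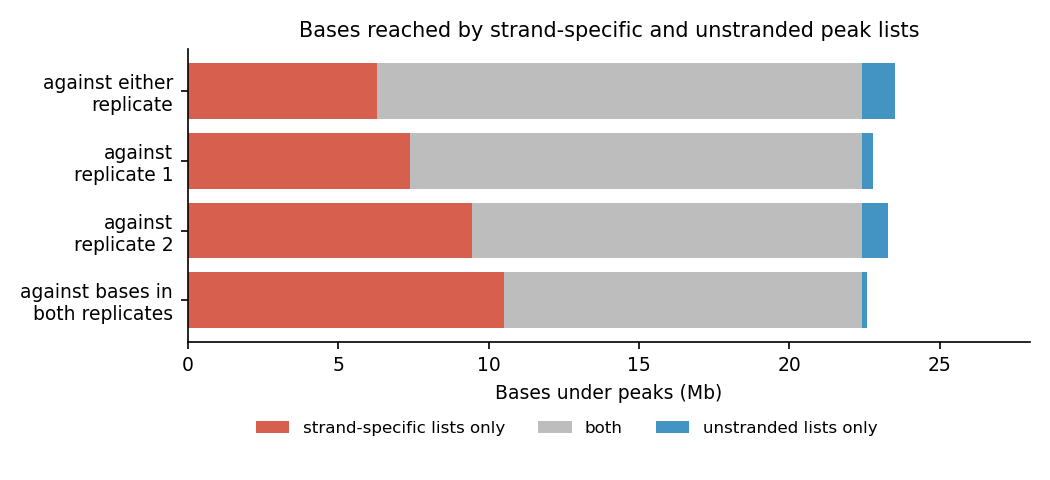
Bases under peaks in Mb, stacked as reached by the strand-specific w and c lists only, by both sides and by the unstranded lists only, with the unstranded side taken as either replicate, replicate 1, replicate 2 or the bases common to both replicates. The strand-specific total is 22.4 Mb in every bar, and the part reached by w and c alone is 6.30 Mb against either replicate and 10.5 Mb against the bases in both.

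Gained bases came from new regions and from wider flanks in nearly equal measure. There were 17502 separate w or c regions that touched no unstranded peak, and they held 2.96 Mb or 47.0% of the gained bases, with a median width of 144 bp. A further 45.7% lay in 67196 edge pieces, stretches of a w or c region that ran past the end of an unstranded peak by a median of 21 bp. Only 7.30% filled gaps between unstranded peaks, in 2367 pieces with a median of 176 bp. Lost bases were made up differently. Edge pieces held 69.4% of them (20092 pieces, median 21 bp), gaps between strand-specific peaks held 19.0% (1971 pieces, median 103 bp), and regions lost whole held 11.6% (857 regions, 0.128 Mb).

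Gained and lost bases both lay less often in protein-coding genes than shared bases did, and more often in gene flanks and farther from genes. Protein-coding genes held 63.9% of gained and 59.0% of lost bases, and 66.5% of the shared ones. The 1 kb flanks of genes held 18.5% and 20.6%, and 15.7% of shared bases. DNA farther from any gene held 6.07% and 6.90%, and 4.73% of shared bases. Pseudogenes, which in the gene table include many genes derived from transposons, went opposite ways, with 10.3% of gained and 12.5% of lost bases, beside 11.8% of shared bases. Regions gained whole had 61.4% of their bases in protein-coding genes and regions lost whole 53.0%, each below the share over all gained or all lost bases. Of the bases in regions lost whole, 35.6% lay in the pericentromeres, taken as 5 windows of 2.5 Mb either side of the step of 500 kb with the fewest genes on each chromosome, whereas 23.8% of all unstranded bases lay there. No test was made of these differences.

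Many strand-specific peaks had no unstranded counterpart. Among w peaks 8854 (25.7%, 95% Wilson interval 25.2 to 26.1) and among c peaks 8649 (25.4%, 24.9 to 25.9) overlapped no peak of either replicate by even 1 bp. Such intervals cover counting error only. Together they made 25.5% of strand-specific peaks, which became 27.8% against replicate 1 alone and 38.6% against replicate 2 alone. The reverse was rare in the full lists: 489 replicate 1 peaks (1.03%, 0.947 to 1.13) and 527 replicate 2 peaks (1.32%, 1.21 to 1.44) overlapped no w or c peak. At 10 Mb of covered DNA on each side, 19.0% of strand-specific peaks and 23.4% of unstranded regions were unmatched. The imbalance thus did not hold in that setting. Requiring that peaks overlap by 50% of each raised the unmatched share of strand-specific peaks from 25.5% to 40.3%. For merged unstranded regions it rose from 1.78% to 17.3%. The shares unmatched against either replicate were close in the w and c lists.

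Unmatched peaks were low and narrow on both sides. The median fold of gained peaks was 3.0 in the w list and 2.97 in the c list, while matched peaks of the same lists had medians of 4.47 and 4.48. Their median width was 144 bp in each list, and that of matched peaks 308 bp. Unmatched replicate 1 peaks had a median fold of 2.21 beside 3.03 for matched ones, and unmatched replicate 2 peaks 2.23 beside 3.01. Across deciles of fold within the w list the unmatched share was 53.6% in the lowest, 54.4% in the next, 31.5% in the fifth, 4.87% in the seventh and 0.522% in the eighth, and no w peak of the top 2 deciles was unmatched. The c list ran from 52.9% in the lowest decile to 0.117% in the ninth and 0 in the highest. In replicate 1 the unmatched share was 4.84% in the lowest decile and 0 from the eighth upwards, and in replicate 2 it was 5.94% in the lowest and 0 in the highest. Every list's strongest peaks therefore had a counterpart on the other side.

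**Figure D2:**
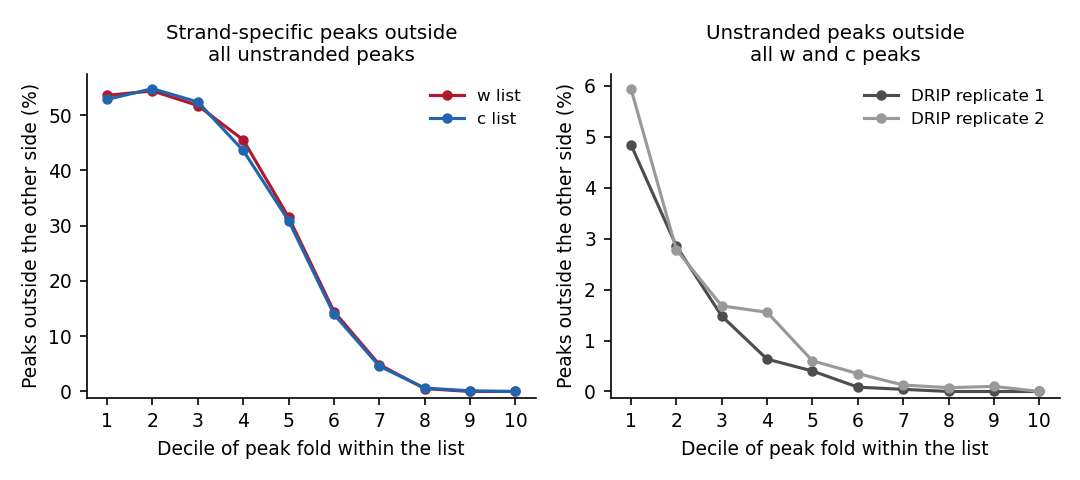
Percent of peaks with no counterpart on the other side by decile of fold within each list, from the lowest fold (1) to the highest (10), for the w and c lists (left) and the DRIP replicates (right, on a different vertical scale). About 54% of w and c peaks in the 2 lowest deciles are unmatched, no more than 5.94% of replicate peaks are in any decile, and each line reaches 0 in the highest decile.

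The strongest unmatched peaks, picked after their values were seen, show where the lists parted most. In the w list the highest lay in RCY1, a cyclin gene, on chromosome 2 from 11245489 to 11246086 (598 bp, fold 5.60). In the c list it lay in AT3G28760 on chromosome 3 from 10794301 to 10794812 (512 bp, fold 6.37). On the unstranded side, AT5G61520 carried a peak of fold 3.19 in replicate 1 and 4.48 in replicate 2, on chromosome 5 from 24741380 to 24741540 in replicate 2, and no w or c peak overlapped it. AGL14, a MADS-box transcription factor gene, also had overlapping peaks in both replicates with no strand-specific one, of fold 3.51 in replicate 1 and 4.11 in replicate 2 (chromosome 4, 7146393 to 7146556 in replicate 2). AT3G23270 was the third gene among the top unmatched peaks of both replicates, at 3.43 in replicate 1 and 3.93 in replicate 2. Regions of this kind were few.

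Regions found in 1 replicate only were lost more often than those found in both. Of 36611 merged unstranded regions with a peak in both replicates, 135 (0.369%) had no w or c peak. Of 9679 regions found in replicate 1 only, 342 (3.53%) had none, and of 1966 found in replicate 2 only, 380 (19.3%) had none. In all, 857 of 48256 regions (1.78%) were lost whole. Width went with loss as well: 4.53% of regions under 200 bp were lost, 0.690% of those from 200 to 400 bp, 0.0425% of those from 400 to 600 bp and 0 of the wider ones.

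Distances from gained peaks to unstranded peaks were not compared with those of randomly placed peaks, so they show neither nearness nor avoidance. The median distance from a gained peak to the nearest unstranded peak was 748 bp for w and 761 bp for c. Within 500 bp lay 37.3% of gained w and 37.2% of gained c peaks, and beyond 5 kb lay 2.64% and 2.9%. A gained peak practically never met a peak on the opposite strand: 0 of 8854 gained w peaks did, and 1 of 8649 gained c peaks did. These counts cover every gained peak of the lists and carry no measure of spread between replicates. Among matched peaks 15.1% of w and 15.2% of c peaks overlapped one of the opposite strand. Matched peaks were also wider, at a median of 308 bp in each list beside 144 bp for gained ones. Gained peaks are, besides, defined by the absence of an unstranded peak at the site. The part of width and of this definition in the contrast was not tested. The strand-specific peaks that replicate 1 lacked were mostly lacking in replicate 2 too, which held 764 of 9618 such w peaks (7.94%) and 778 of 9427 such c peaks (8.25%). Of the w peaks outside replicate 2, replicate 1 held 33.7%, and of such c peaks 33.9%.

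Splitting was largely the separation of strands. An unstranded region was counted as split when 2 or more w or c peaks overlapped it, as held for 5024 regions (10.4%; 9.88% against replicate 1 alone and 11.4% against replicate 2 alone). Of the split regions 3998 (79.6%) held exactly 1 w and 1 c peak, 787 held 3 or more peaks of both strands, 121 held only w peaks and 118 only c peaks. Both strands were present in 95.2% of them. Unsplit regions divided evenly, with 21315 under 1 w peak and 21060 under 1 c peak. When overlapping w and c peaks were merged first, an alternative added after the data were seen, the split share was 3.84%.

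Within the pairs of 1 w and 1 c peak, the peaks of opposite strands overlapped in 72.7% of regions, by a median of 123 bp, and stood apart in 27.3%, by a median of 72 bp. The w peak had the lower coordinates in 2197 of these regions (55.0%) and the c peak in 1796 (44.9%). Regions with 2 peaks of the same strand had a median gap of 177 bp between them. That gap sits close to the smallest distance between neighbouring peaks of any list, 151 bp. Split regions were wide, with a median of 570.5 bp beside 266 bp for all unstranded regions. The split share was 1.98% below 200 bp, 7.35% from 200 to 400 bp, 13.4% from 400 to 600 bp, 27.5% from 600 to 1000 bp and 55.3% above. Pericentromeric regions were split more often than those of the arms, 13.7% against 9.33%, and were also lost more often, 2.54% against 1.52%. Their gained share of bases was 27.1%, against 28.4% in the arms.

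The 5 regions split into the most peaks included 2 at pseudogenes. A region of 5333 bp on chromosome 4, from 3055921 to 3061253, overlapped 4 w and 4 c peaks across the pseudogene AT4G06477. All 10 of its peaks, including 1 in each replicate, had low folds, from 1.68 to 2.18. AT3G33084, a pseudogene on chromosome 3, lay under a region from 13673648 to 13675509 that the w list held as 4 peaks (folds 2.17 to 4.86) and the c list as 3 (2.19 to 6.45), against 1 peak in replicate 1 (5.74) and 3 in replicate 2 (2.32 to 5.32). Along the 1862 bp of the region the w peaks left 3 gaps and the c peaks 2, and both c gaps overlapped a w gap. The other split regions lay at AT1G70750 with 3 w and 3 c peaks, at AT2G12875 and AT2G12880 with 2 w and 4 c peaks, and at AT2G33435, PRPL28 (plastid ribosomal protein L28) and RIC1 (a partner of ROP GTPases) with 3 w and 3 c peaks.

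Joining was rarer than splitting when w and c peaks were counted apart. With overlapping w and c peaks merged first, the shares were close, at 3.46% for joining and 3.84% for splitting. A w peak overlapped 2 or more unstranded regions in 1147 cases (3.33%) and a c peak in 1100 (3.23%), together 3.28% (3.74% against replicate 1 alone and 3.44% against replicate 2 alone). Peaks that joined were broad, with median widths of 816 bp for w and 825 bp for c, and bridged gaps with medians of 178 bp and 174.5 bp. No peak joined more than 4 regions. At DEK1, a calpain-type protease gene needed for the epidermis, 1 c peak of 2171 bp (chromosome 1, 20656662 to 20658832, fold 9.0) spanned 4 peaks of replicate 1 (folds 2.24 to 5.53) and 4 of replicate 2 (2.01 to 5.18). No w peak lay in it. The other peaks that joined 4 regions and were named by rule were a c peak of 1735 bp at AT1G01570, a w peak of 1337 bp at ABCB12 (an ABC transporter), a w peak of 2107 bp at RPA1A (a subunit of replication protein A) and PSBX (a photosystem II subunit), and a c peak of 2132 bp at AT5G27190 and ACP5 (an acyl carrier protein).

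**Figure D3:**
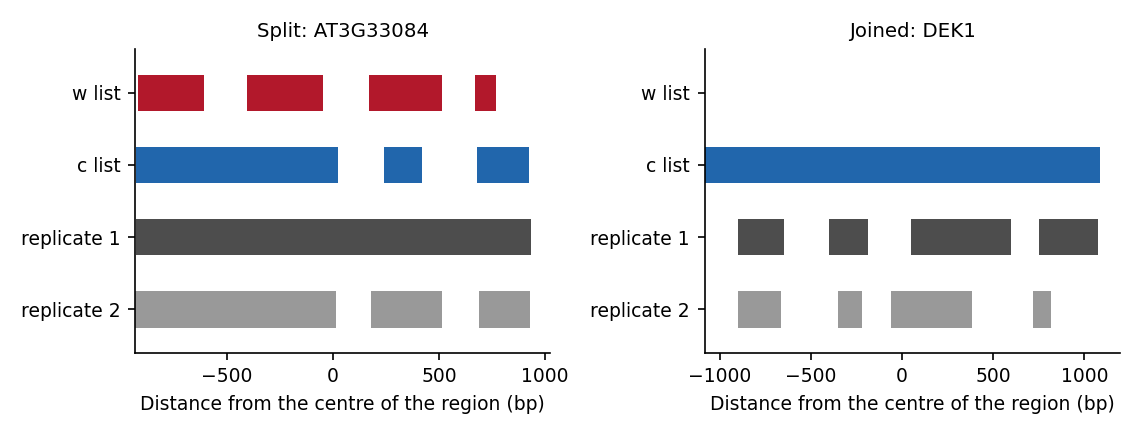
Peaks of the w list, the c list and DRIP replicates 1 and 2 as bars along the distance in bp from the centre of the region, at AT3G33084 (left), split by strand-specific calling, and DEK1 (right), joined by it. At AT3G33084 there are 4 w and 3 c peaks beside 1 peak of replicate 1 and 3 of replicate 2, and at DEK1 1 c peak and no w peak beside 4 peaks in each replicate.

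Boundaries were compared where 1 strand-specific and 1 unstranded peak overlapped each other and nothing else, as strand-specific minus unstranded, so that a negative lower and a positive upper difference mean a wider strand-specific peak. Against replicate 1, the lower boundary of w peaks differed by a median of -16 bp and the upper by 28 bp (18902 pairs). For c peaks the lower boundary differed by -28 bp and the upper by 16 bp (18666 pairs). Both ends lay outside those of the replicate 1 peak in 80.5% of w and 80.2% of c pairs, and the median width difference was 51 bp for each. Strand-specific peaks were thus wider, and w and c mirrored each other in which end extended farther.

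Against replicate 2 the long side changed ends. The w peaks differed by -29 bp at the lower and 18 bp at the upper boundary (15431 pairs), and the c peaks by -18 bp and 29 bp (15346 pairs). The median width difference was 57 bp for each list, and both ends lay outside in 59.4% of w and 59.3% of c pairs. With the replicates merged, the differences were -15 and 13 bp for w (19293 pairs) and -14 and 15 bp for c (19116 pairs), nearly even. Extension at both ends was found with either replicate, whereas the end with the larger extension held for 1 replicate only. The replicates themselves differed by medians of -4 and 4 bp (replicate 1 minus replicate 2, 34476 pairs).

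That switch had a counterpart in the unstranded lists once they were sorted by strand, a comparison added after the data were seen. Where a pair of replicate peaks was overlapped by w peaks only, replicate 1 lay lower than replicate 2 by a median of 11 bp at each boundary (medians of -11 and -11 bp, 15446 pairs). Where it was overlapped by c peaks only, replicate 1 lay higher by 11 bp at each boundary (15239 pairs). Where both strands were present the medians were -4 and 5 bp (3375 pairs). On each of the 5 chromosomes the medians were between -12 and -10 bp for w and between 10 and 12 bp for c. The unstranded replicates were therefore offset against each other along the chromosome, in opposite directions at w and c peaks. The offset was smaller than the median strand-specific extension over all pairs. It was not smaller in every quartile of fold. In the highest quartile against replicate 2 the extension was 7 bp at the upper boundary of w and -9 bp at the lower boundary of c.

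**Figure D4:**
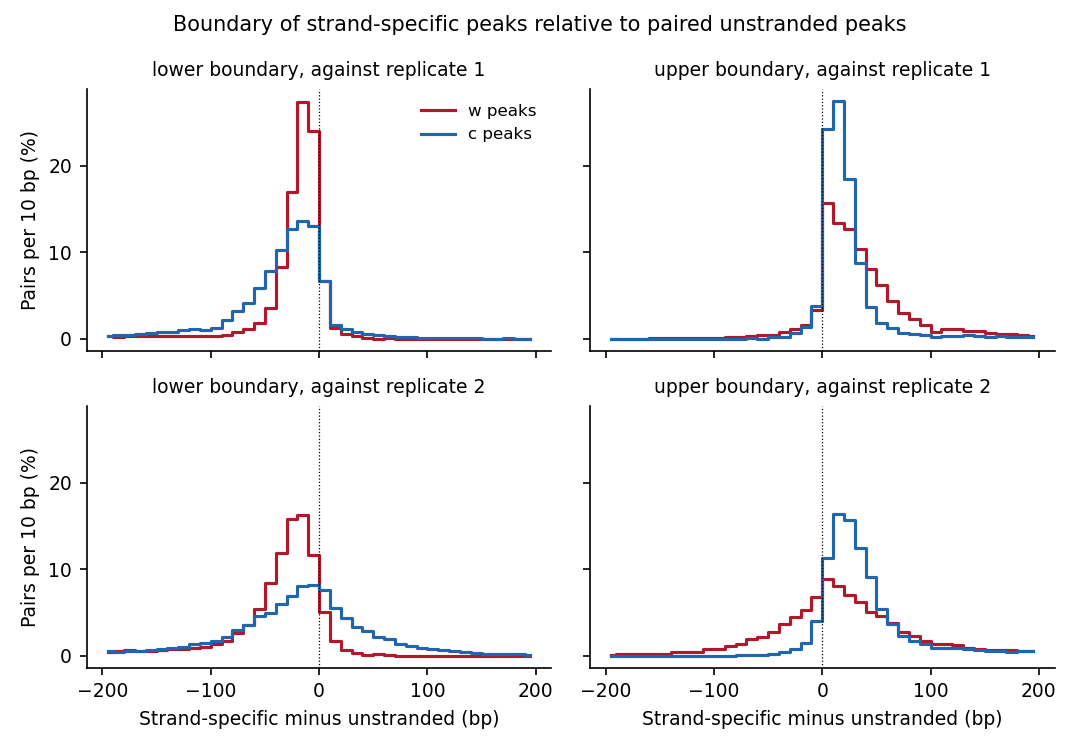
Distribution of boundary differences, strand-specific minus unstranded in bp, as percent of pairs in steps of 10 bp, for w and c peaks against replicate 1 (top) and replicate 2 (bottom) at the lower (left) and upper (right) boundary. Medians at the lower boundary are -16 (w) and -28 bp (c) against replicate 1 and -29 and -18 bp against replicate 2, and at the upper boundary 28 and 16 bp, then 18 and 29 bp.

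In the same pairs the deposited folds were higher in the strand-specific lists. The ratio of the w fold to the replicate 1 fold had a median of 1.56, as did that of the c fold, and it exceeded 1 in 99.2% of w and 99.0% of c pairs. Against replicate 2 the median ratio was 1.61 for w and 1.61 for c. Summits moved less than boundaries. In 60.5% of w and 60.2% of c pairs the summit was at the very base of the replicate 1 summit, against 5.15% of w and 5.19% of c pairs for replicate 2 and 5.17% of pairs between the replicates.

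Genes were reached more often by strand-specific peaks. A gene was counted as reached when a peak overlapped it by at least 1 bp, in the RefSeq gene table of TAIR10.1, a release of the same assembly as TAIR10. Of 27444 nuclear protein-coding genes, 21676 (79%) were reached by a w or c peak and 18875 (68.8%) by an unstranded peak. Both sides reached 18777 genes. Only the strand-specific side reached 2899 (10.6%), and only the unstranded side reached 98 (0.357%). Against replicate 1 alone the counts were 3246 and 42, and against replicate 2 alone 4720 and 70. At 10 Mb of covered DNA on each side, which took peaks down to a fold of 5.04 in the strand lists and 3.29 in the replicates, the counts were 1685 and 1826, so the imbalance did not hold in that setting.

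Genes reached by w or c alone carried modest peaks. Of the 2899, 1331 had w peaks only, 1310 had c peaks only and 258 had both. In 2719 of them every peak was a gained peak, while 180 were touched by a peak that was matched outside the gene. The median of their highest fold was 3.24 and the median length covered was 156 bp, beside 5.75 and 660 bp in genes reached by both sides. They were shorter than genes reached by both sides (median 1921 bp, beside 2338 bp) and longer than genes reached by neither (1320 bp). Most gained peaks did not add a gene: of gained w peaks 44.1% lay in protein-coding genes that already had an unstranded peak and 18.7% in genes that had none, and of gained c peaks 44.7% and 18.8%.

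The 12 protein-coding genes with the highest fold among those reached by w or c alone were chosen by rule, and most were reached by the edge of a strong peak that lay mainly next to them. AT4G18530 led with a c peak of fold 8.96, which ran from 10216263 to 10217390 on chromosome 4 and entered the gene (10217338 to 10220550) at its lower end. AT1G09794 followed with c 8.89 and 76 bp of the gene covered, AT2G05753 with c 8.74 and 93 bp, and AT1G67635 with w 8.69 and 253 bp. PPa6, which encodes a plastid inorganic pyrophosphatase, was touched by a w peak of fold 8.40 and held a c peak of 3.11 inside (chromosome 5, 2991946 to 2992133). TIM17-1, a subunit of the mitochondrial inner membrane translocase, was covered over 18 bp by a w peak of fold 7.66, and AT1G67470 and AT1G53325 over 7 bp each by peaks of w 8.35 and c 7.55. The rest were AT5G17150, AT2G46360, AT1G22690 and AT2G32220, with folds from 7.52 to 8.10. A high fold beside such a gene therefore does not mean a strong peak within it.

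Among genes whose every peak was a gained one, listed after their values were seen, the highest folds were at AT3G28760 (c 6.37), AT4G07675 (c 5.63), AT1G33090 (w 5.45), LHCB6 (c 5.31) and AT1G54220 (w 5.30). P4H13, a prolyl 4-hydroxylase gene, and ZR3 each had w 5.16, and PRB1, a gene for a basic pathogenesis-related protein, had w 5.01. Chosen as the highest, these values do not describe gained peaks in general. Gained peaks had median folds of 3.0 in the w list and 2.97 in the c list, below the 3.88 and 3.90 of the whole lists.

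The 98 genes reached by unstranded peaks alone were shorter than those reached by w or c alone, with medians of 1343.5 bp and 1921 bp. The length covered was also shorter, at a median of 103.5 bp beside 156 bp. Under 50 bp was covered in 32 of the 98. Replicate 1 alone reached 28, replicate 2 alone 56 and both replicates 14. A region lost whole accounted for 56 (57.1%). The nearest w or c peak was at a median of 109.5 bp from the gene, and within 100 bp of 47 genes. Counting a gene with 1 kb either side left 32 such genes (2208 on the strand-specific side), and requiring the summit inside the gene gave 236 (2952 on the strand-specific side). Their share was 0.685% in the shortest length quartile of genes and 0.102% in the longest, and that of genes reached by w or c alone was 11.8% and 8.36%.

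By fold, the genes of the unstranded side were led by AT5G22799 (replicate 2 fold 6.77, 34 bp of the gene covered), ABCI17, an ABC transporter gene (6.54, 62 bp), and AT3G01520 (6.03, 28 bp). None of these 3 had a replicate 1 peak, and each was entered at its edge by a region that w or c peaks matched outside the gene. Of the 12 named by rule only AGL14 had a region lost whole, 164 bp inside the gene on chromosome 4 (7142922 to 7147391). The others were AT1G55675, AT3G43583, AT1G02490, AT1G05450, AT1G53950, AT1G02700, AT2G04830 and AT3G44060, all with a peak in replicate 2 only, at folds from 4.06 to 5.70.

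Other gene classes followed protein-coding genes with exceptions among the shortest. Pseudogenes were reached by w or c alone in 531 of 4843 cases (10.96%) and by unstranded peaks alone in 22 (0.454%), and long noncoding RNA genes in 345 of 3480 (9.91%) and 16 (0.460%). For tRNA genes, with a median length of 73 bp, the counts were 36 of 625 (5.76%) and 17 (2.72%). For miRNA genes they were 21 of 326 (6.44%) and 3, for snoRNA genes 14 of 287 (4.88%) and 4, and for snRNA genes 1 of 82 and 0. Of the genes that unstranded peaks reached, strand-specific peaks missed 6.14% of tRNA and 5.77% of miRNA genes, against 0.519% of protein-coding genes. In 11 of the 17 tRNA genes under 50 bp was covered.

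Examples chosen by rule show both edges and whole genes. MIR156c, a microRNA gene whose product restrains SPL transcription factors, lay wholly within a w peak of fold 7.66 (chromosome 4, 15415210 to 15416064) and under no unstranded peak. That w peak was not a gained one, since an unstranded peak matched it outside the gene. MIR1886 was covered over 17 bp by a w peak of fold 7.81, likewise matched outside the gene. On the unstranded side, MIR5632 was covered over its whole 160 bp by a replicate 2 peak of fold 2.65, and MIR8183 over 42 bp by peaks of fold 4.03 in replicate 1 and 4.26 in replicate 2. Among tRNA genes, AT5G65445 lay within a c peak of fold 8.29 that an unstranded peak matched outside the gene. AT4G26375 was covered over 15 bp by a replicate 2 peak of fold 6.74. The snRNA gene AT5G08810 was reached by a gained w peak of fold 3.47. The remaining genes named by rule, of pseudogene, long noncoding, antisense, other noncoding and snoRNA class, had folds from 5.59 to 8.84 on the strand-specific side and from 2.18 to 5.30 on the unstranded side.

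**Figure D5:**
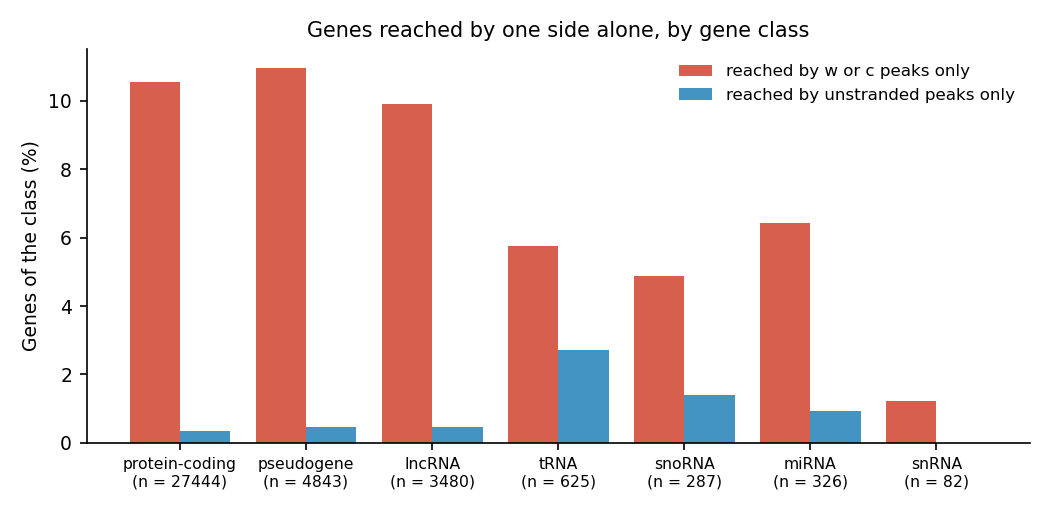
Percent of the nuclear genes of each class that were reached by w or c peaks only and by unstranded peaks only, with the number of genes of the class below its name. The strand-specific share is 10.6% for protein-coding and 5.76% for tRNA genes, and the unstranded share 0.357% and 2.72%.

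In genes that both sides reached, strand-specific peaks usually covered more of the gene. Of the 18777 protein-coding genes, 15365 (81.8%) had more bases under w or c peaks and 3240 (17.3%) more under unstranded peaks, with a median difference of 102 bp. Against replicate 1 alone 93.4% had more bases under w or c peaks, and against replicate 2 alone 89.4%. In 6115 of these genes (32.6%) a gained peak was added, and in 416 (2.22%) a whole unstranded region was lost. They carried w peaks only in 5302 cases, c peaks only in 5303 and both in 8172.

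Known genes give examples of what these counts mean at a locus, with no test of any list. No member of the 6 lists was reached by unstranded peaks alone, which at a share of 0.357% over all protein-coding genes says nothing particular about lists this small. Over all protein-coding genes 79% were reached by strand-specific and 68.8% by unstranded peaks, and 10.6% by strand-specific peaks alone. Of 15 circadian clock genes, strand-specific peaks reached 15 and unstranded peaks 14, so 1 was reached by w or c alone, no more often than over all genes. GI, which links the clock to photoperiodic flowering, made the difference with 2 gained c peaks, the higher of fold 2.96 (chromosome 1, 8065253 to 8065421). In FKF1, a blue light receptor of the same pathway, 2 w peaks (highest 4.13) covered 770 bp, whereas a single replicate 1 peak (2.23) covered 108 bp and replicate 2 had none. LHY, a morning clock transcription factor gene, had w 9.87 and c 3.85 beside 5.42 in replicate 1 and 4.48 in replicate 2, and 392 bp covered beside 342 bp. Of 14 clock genes reached by both sides 13 had more bases under w or c peaks, with ELF4 as the exception at 148 bp against 181 bp. Over all protein-coding genes reached by both sides that share was 81.8%.

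Of 24 photosynthesis genes strand-specific peaks reached 24 and unstranded peaks 20. LHCB6, a minor antenna protein of photosystem II, had 2 c peaks, the higher of fold 5.31 (chromosome 1, 5446641 to 5447019), with 492 bp covered. LHCA3 (c 2.51) and Lhca6 (c 2.81), antenna proteins of photosystem I, and LHCB4.3 (w 2.80), of photosystem II, were each reached by 1 low gained peak. These 4 of 24 genes stand beside a share of 10.6% over all protein-coding genes, and no test of the list was made. In RBCS2B, a Rubisco small subunit gene, there were a w peak of fold 8.10 and a c peak of fold 5.24, beside 1 peak in each replicate (6.67 and 6.18). RBCS1A had w 5.60 and c 7.05, beside 7.07 in replicate 1 and 5.94 in replicate 2. It was the only member of the 6 lists whose highest strand-specific fold was below its highest unstranded fold.

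Of 18 flowering time genes, strand-specific peaks reached 17 and unstranded peaks 16, so 1 was reached by w or c alone, beside 10.6% over all genes. No list reached TSF, a relative of FT. MAF1, a MADS-box floral repressor, was reached by a gained c peak of 100 bp (fold 2.67). At FLC, the central repressor of the vernalization pathway, 2 w peaks (highest 3.98) covered 300 bp, against 118 bp for the single replicate 1 peak of fold 2.31, and there was no c or replicate 2 peak. At FT the w peak (4.86) and the c peak (6.52) lay beside 2 peaks in each replicate (highest 3.51 and 3.29). Each side thus held 2 peaks or more at FT.

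All 17 Aux/IAA genes, which encode repressors of the auxin response, were reached by strand-specific peaks and 15 by unstranded ones. The 2 of 17 reached by w or c alone are near the 10.6% over all genes. SHY2, also known as IAA3, had 2 w peaks (highest 3.24) and 1 c peak (4.00) over 377 bp, and ATAUX2-11, also known as IAA4, had 1 w peak (3.24) and 1 c peak (2.96) over 332 bp. Neither had an unstranded peak. Aux/IAA genes also held the clearest case in the other direction: IAA2 had 652 bp under unstranded peaks and 234 bp under a single c peak of fold 4.98, and 1 of the unstranded regions in it had no strand-specific counterpart at all. Of the 15 genes both sides reached, 10 had more bases under strand-specific peaks against either replicate, 14 of 15 against replicate 1 alone and 10 of 13 against replicate 2 alone. Over all protein-coding genes reached by both sides the shares were 81.8%, 93.4% and 89.4% in the same order.

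Of 17 histone H3 and H4 genes, strand-specific peaks reached 14 and unstranded peaks 12, so 2 of 17 were reached by w or c alone, near the 10.6% over all genes. These, AT4G40030 (c 3.05, 99 bp) and AT5G10980 (w 3.54, 173 bp), encode the replacement histone H3.3. All 5 genes for the replication-coupled H3.1 were reached by both sides, as were 68.4% of all protein-coding genes, and no contrast of the 2 kinds was tested. AT4G40040, another H3.3 gene, and the H4 genes AT3G45930 and AT5G59690 were reached by no list. Near-identical histone copies can share reads, and the sources used here do not say how such reads were treated. Of 6 genes for R-loop factors both sides reached the same 5, where strand-specific peaks reached 79% and unstranded peaks 68.8% of all protein-coding genes. All 5 had more bases under w or c peaks, as did 81.8% of the protein-coding genes that both sides reached. They were the topoisomerase I genes TOP1ALPHA and TOP1BETA, the RNase H1 genes AT5G51080 and AT1G24090, and AT4G03090 (NDX). NDX is a homeodomain protein that binds single-stranded DNA at an FLC R-loop. AT3G01410, also an RNase H1 gene, was reached by none. TOP1BETA had 3 c peaks over 671 bp beside 1 peak in each replicate over 255 bp in all. Median highest folds of the lists lay between 5.17 and 5.97 on the strand-specific side, beside 5.40 over all reached protein-coding genes, and between 3.11 and 4.19 on the unstranded side, beside 3.75.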

How the data were processed

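The submitters built the DRIP libraries by ligating adapters to single DNA strands, so that reads keep their strand. Per the submitters' processing notes, CASAVA, BWA 0.7.12 and MACS2 were used with the TAIR10 genome. The sources used here state no calling parameters, no control library and no rule by which the w and c peaks were called or pooled. The deposited fold values are a linear ratio of summit pileup to local background, computed by the authors with MACS2. Each peak's deposited -log10 q-value, at least 1.3 in each list, and its -log10 p-value are also the authors' own. The summit offset in bp is likewise as deposited. Read totals are in no list, so depth is unknown and precision is limited to the spread between the DRIP replicates and, for shares of peaks, Wilson intervals.

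From these files, intervals were merged, intersected and counted with Python 3.11.15, NumPy 2.4.6, pandas 2.3.3 and SciPy 1.17.1, and drawn with matplotlib 3.10.9. The procedures were tested on simulated data. An overlap of 1 bp counted as shared unless another is named. Genes came from a RefSeq table of TAIR10.1 with gene ends but no strand or exons, so transcribed strand, exons and sequence were not used. Gene extents are printed with peaks, both counted from 1. A base in several features was counted once, with protein-coding genes ahead of small RNA genes, then pseudogenes, other noncoding genes, 1 kb flanks and intergenic DNA. All comparisons are descriptions without a test, since only the DRIP group has values here and the rule behind the strand lists is unknown. SD is over replicate 1 alone and replicate 2 alone. Genes named are, by rule, the 12 protein-coding genes of each side with the highest fold, up to 2 per other class and side, each list member that only 1 side reached, and the 5 regions or peaks most split or joined. Members and lists were chosen with earlier results of these data known. Alternatives were a reciprocal overlap of 50%, q-values of at most 0.01, the upper 50% by fold, 10 Mb on each side, joining of peaks within 100 bp, bases in both replicates, each replicate left out, 1 kb added to genes and summits inside genes. Added after the data were seen were 50 bp of gene overlap and merging of w with c.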

Additional observations from a re-analysis of the deposited data

How the results depend on the processing

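With a reciprocal overlap of 50%, 40.3% of peaks were gained, 17.3% of regions lost, 2.19% split and 0 peaks joined regions. Among the upper 50% by fold, 12.3% of bases and 7.85% of regions were lost, 6.77% were split, 1.86% of peaks joined regions and 487 genes were reached by unstranded peaks alone. At 10 Mb on each side, 27.6% of bases and 23.4% of regions were lost, 3.87% were split, 1.89% of peaks joined regions, and strand-specific peaks alone reached 1685 genes and unstranded peaks alone 1826. Against bases in both replicates, 47.0% of bases and 40.9% of peaks were gained, 1.41% of bases and 0.411% of regions lost, 3.93% of peaks joined regions, the boundary medians were -30 and 40 bp for w and -40 and 30 bp for c, and 5178 and 14 genes were reached by strand-specific and by unstranded peaks alone. The count for unstranded peaks alone was 32 with 1 kb added to genes and 236 with summits inside them. With w and c merged first, 3.84% of regions were split and the joining share was 3.46%. Leaving out either replicate gave 32.9% to 42.2% of bases gained and 2.54% to 6.39% lost, 27.8% to 38.6% of peaks gained and 1.03% to 1.32% lost, 9.88% to 11.4% split and 3.44% to 3.74% joining. The boundary medians were then -29 to -16 and 18 to 28 bp for w and -28 to -18 and 16 to 29 bp for c, and the gene counts 3246 to 4720 and 42 to 70. The direction of each boundary difference held in every setting run. Joining peaks within 100 bp could change nothing, since the smallest gap in any list is 151 bp. Of the 88 values recomputed in the other settings, 47 stayed within the spread between replicates or, for counts, within 1.5 times, and 41 moved. The 47 include every value from joining peaks within 100 bp, which could not change, so this tally overstates stability. The settings that leave out a replicate were judged against a spread made of their own values, so for them the tally is not independent. Except for the equal share at 10 Mb, which follows from its construction, the cause of these shifts was not tested. No paired analysis was possible because the results come from no test and only the DRIP group has values. Unknown depth limits every count of unmatched peaks, most of which are of low fold.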

Other observations

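The offset between the DRIP replicates by strand also showed in other measures. The median summit difference, replicate 1 minus replicate 2, was -4 bp where only w peaks overlapped and 5 bp where only c peaks did. In the pairs with w only, the lower boundary of replicate 1 was below that of replicate 2 in 73.4%, and in the pairs with c only its upper boundary was above in 73.4%. A cause of the offset was not tested.

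By quartile of the replicate peak's fold, from lowest to highest, the extension of strand-specific peaks was smaller at stronger peaks at some ends and nearly level at others. Against replicate 1 the lower boundary of w peaks differed by -24, -18, -15 and -12 bp and the upper boundary of c peaks by 24, 18, 15 and 12 bp. The opposite ends were nearly level, at 29, 30, 29 and 26 bp for the upper boundary of w and -29, -30, -29 and -27 bp for the lower boundary of c. Against replicate 2 the medians went from -42 to -20 bp at the lower and from 25 to 7 bp at the upper boundary of w, and from -23 to -9 bp and from 42 to 20 bp for c. The fold ratio from the lowest to the highest quartile was 1.53 and 1.55 for w and 1.52 and 1.56 for c against replicate 1, and 1.67 and 1.54 for w and 1.66 and 1.55 for c against replicate 2.

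The list of strand-specific peaks without an unstranded counterpart held pseudogenes among its strongest entries, picked after their values were seen. Pseudogenes held 9.88% of the bases in regions gained whole, less than their 11.8% of shared bases. In the c list the pseudogenes AT1G36600 (fold 5.92), AT5G28430 (5.78) and AT5G32690 (5.74) stood between the protein-coding genes AT3G28760 and AT4G07675. In the w list the pseudogene AT5G31087 (5.39) came after RCY1, AT1G33090 and a peak in no gene, and before AT1G54220.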
